A study of Homo sapiens with 12 samples.

Results

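The glycolysis genes described here are 10 human genes chosen by symbol, SLC2A1, HK1, HK2, ALDOA, GAPDH, PGK1, PGAM1, ENO1, PKM and LDHA, out of 58735 genes in the deposited tables, and each symbol matched 1 row. They were measured by poly(A) RNA-Seq in HEK293T, a human embryonic kidney cell line, labelled as wild type, in 12 libraries that formed 4 groups of 3. The groups were DMSO vehicle, CEP, 4SU, and CEP with 4SU (CEP+4SU), and the series describes the replicates as independent within the single line. CEP stands for clickable electrophilic purine, here the cysteine-reactive probe AHL-Pu-1 given for 1 h, and 4SU is 4-thiouridine, a uridine analog that cells build into new RNA, given at 100 µM for 16 h. The series text and the paper give the CEP dose as 25 µM, whereas the treatment protocol gives 25 mM. That protocol, which includes 312 nm light for crosslinking, is worded the same for all 12 libraries, so whether the DMSO cells were irradiated is not given in the sources used here. The question put to these genes was whether mRNAs of a central metabolic pathway kept their levels when CEP, 4SU or both were present.

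Glycolysis turns glucose into pyruvate in the cytosol and yields ATP and NADH without oxygen. Lactate dehydrogenase returns NADH to NAD+ by reducing pyruvate to lactate, which lets the pathway run on. In fast-growing cell lines the pathway is usually very active, many of its genes are induced by the hypoxia-inducible factor HIF and by MYC, and GAPDH is often used as a reference gene. The 10 genes cover glucose uptake (SLC2A1), the first phosphorylation (HK1 and HK2), cleavage of the 6-carbon sugar (ALDOA), the steps from glyceraldehyde phosphate to pyruvate (GAPDH, PGK1, PGAM1, ENO1 and PKM) and lactate formation (LDHA).

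Upstream sequence is shown for ENO1, the 1 gene of the 10 that passed the test in any comparison, and for GAPDH, LDHA and PGK1. The windows of GAPDH, LDHA and PGK1 hold short motifs of the kind that HIF proteins are known to bind. Those of GAPDH and LDHA, but not that of PGK1, also hold the kind that MYC proteins are known to bind. Each sequence is the 250 bases before an annotated start in RefSeq (GRCh38.p14), 5′ to 3′ on the gene's own strand, with the letters of ACGTG or GCGTG on either strand in capitals. The 6 letters CACGTG contain a match on each strand and are also the E-box bound by MYC.
ENO1, chr1:8878687-8878936, minus strand: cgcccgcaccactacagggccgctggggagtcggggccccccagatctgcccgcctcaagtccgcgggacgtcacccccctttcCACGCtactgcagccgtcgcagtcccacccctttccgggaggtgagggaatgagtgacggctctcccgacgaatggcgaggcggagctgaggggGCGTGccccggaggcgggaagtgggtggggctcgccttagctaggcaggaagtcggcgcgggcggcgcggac
GAPDH, chr12:6535014-6535263, plus strand: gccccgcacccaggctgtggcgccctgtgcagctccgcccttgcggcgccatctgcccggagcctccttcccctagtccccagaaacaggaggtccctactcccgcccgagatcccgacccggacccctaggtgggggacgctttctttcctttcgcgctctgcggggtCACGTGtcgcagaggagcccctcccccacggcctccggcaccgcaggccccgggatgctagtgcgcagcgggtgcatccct
LDHA, chr11:18394313-18394562, plus strand, the first of its 2 listed starts: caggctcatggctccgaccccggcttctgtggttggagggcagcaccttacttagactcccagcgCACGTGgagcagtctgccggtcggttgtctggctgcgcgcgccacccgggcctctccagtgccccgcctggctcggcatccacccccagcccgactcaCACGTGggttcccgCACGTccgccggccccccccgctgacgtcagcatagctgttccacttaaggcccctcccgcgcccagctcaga
PGK1, chrX:78103998-78104247, plus strand: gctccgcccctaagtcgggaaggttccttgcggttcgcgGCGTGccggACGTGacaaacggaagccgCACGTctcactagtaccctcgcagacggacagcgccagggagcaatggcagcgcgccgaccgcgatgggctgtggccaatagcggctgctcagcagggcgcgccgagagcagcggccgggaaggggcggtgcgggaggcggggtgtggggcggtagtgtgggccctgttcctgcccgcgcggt

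RefSeq listed 20 starts for the 10 genes, 7 of them for HK1. ACGTG or GCGTG stood in 11 of these 20 windows, beside 43.2% of the 35116 windows of the same length in the whole table. CACGTG stood in 4 of the 20 windows, 1 each of HK2, ALDOA, GAPDH and LDHA, beside 6.34% of all windows. By gene, 7 of the 10 had ACGTG or GCGTG in any window, beside 47.4% of genes, and 4 had CACGTG, beside 7.73%. The second HK2 window, not shown above, held the most core matches, 6, and CACGTG 2 times. The ENO1 window held 2 core matches and no CACGTG, and the windows of SLC2A1, PGAM1 and PKM held neither motif. These are letter matches and describe sequence, not binding.

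The libraries held between 16569114 and 24644734 counts on genes. CEP replicate 2 and CEP+4SU replicate 2 stood apart in having the fewest genes with a count, 22230 and 22627, against 24376 to 25869 in the other 10. The slope of log2 expression on the GC content of genes, relative to the mean of all libraries, was 0.10 to 0.11 per 10% GC in the 3 DMSO libraries, and was lowest in the same pair, at -0.17 and -0.22. All 6 markers chosen for HEK293T (NEFL, NEFM, PAX2, KRT8, KRT18 and VIM) passed the low-count filter, with summed levels of 649 to 708 CPM (counts scaled to a common library size) across the libraries. Of the markers of other cells, 3 of 5 for fibroblasts, 2 of 5 for blood cells and 0 of 3 for endothelium passed it, and none was called. The summed fibroblast level, most of it COL1A1, was 44.4 to 45.7 CPM in DMSO, 38.4 to 40.0 with CEP, 33.9 to 44.96 with 4SU and 33.9 to 38.9 CPM with CEP+4SU, while COL1A2 was at or near 0 in every library. Its part in the results below was not tested. In bulk RNA, fewer cells expressing a gene and less of its RNA per cell cannot be told apart.

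Per length of gene, the 10 mRNAs spanned a wide range in vehicle-treated cells. GAPDH was the highest at 599 ± 55.7 FPKM (mean ± SD, n = 3; fragments scaled for gene length and library size) and ranked 33 among 29513 genes above 0. ENO1, which makes phosphoenolpyruvate, followed at 495 ± 31.8 FPKM and rank 44. PGAM1, the phosphoglycerate mutase, reached 245 ± 20.3 FPKM, and PKM, the pyruvate kinase, 202 ± 16.1 FPKM. LDHA stood at 193 ± 22.2 FPKM and PGK1, the first ATP-forming enzyme of the pathway, at 122 ± 9.43 FPKM. The genes of glucose entry lay well below these, with HK1 at 29.2 ± 2.08 FPKM, HK2 at 16.1 ± 1.01 FPKM and SLC2A1, which encodes the glucose transporter GLUT1, at 13.3 ± 2.14 FPKM.

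ALDOA, the main aldolase outside liver and brain, was listed at only 4.23 ± 0.721 FPKM in DMSO, rank 8420, from 115 to 438 counts a library, so these files do not show it as abundant. In GENCODE 29 its exons share 1657 bases with AC093512.2, a gene on the same strand that was counted separately with 27 to 72 counts. Over the 15 protein-coding ALDOA transcripts, 82.6% to 100% of the bases lie in that shared part (median 89.6%), where a read cannot be given to 1 gene, so the ALDOA values are uncertain. For the other 9 genes the part of the exons shared with other genes was 14.2% for GAPDH (with the antisense AC006064.4, at 0 counts) and 2.71% or less elsewhere. The 94 annotated pseudogenes named after the 10 genes, 62 of them of GAPDH, held 0.101% as many counts as the genes themselves.

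The order of the FPKM levels was GAPDH, ENO1, PGAM1, PKM, LDHA, PGK1, HK1, HK2, SLC2A1 and ALDOA in DMSO, 4SU and CEP+4SU, and in CEP only PKM and LDHA changed places. Neighbours in this order whose 3 libraries overlapped were PKM and LDHA in DMSO, CEP and CEP+4SU, and HK2 and SLC2A1 in DMSO and CEP. All other neighbours were separate in every group. The step from PGK1 down to HK1 was 4.19-fold in DMSO and 3.96-fold to 4.04-fold in the treated groups.

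**Figure D1:**
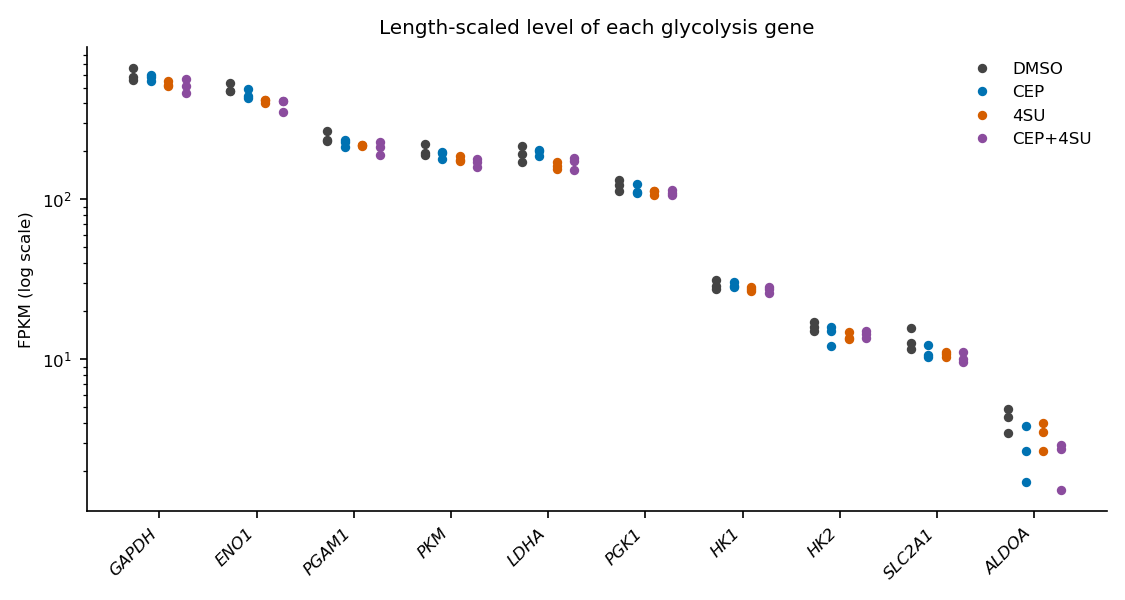
FPKM of each glycolysis gene (log axis) in every library, with genes ordered by their DMSO mean and a point for each of 3 libraries a group. The genes run from GAPDH at 599 to ALDOA at 4.23 FPKM in DMSO, and the order is nearly the same in all 4 groups.

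Together the 10 genes took less than 1% of the counts in each library. The share was 0.963%, 0.877% and 0.836% in the DMSO libraries and 0.863%, 0.853% and 0.824% with CEP. It came to 0.816%, 0.791% and 0.787% with 4SU and to 0.771%, 0.728% and 0.803% with CEP+4SU. All 6 libraries with 4SU lay below all 6 without it, while the CEP and DMSO libraries overlapped. This split did not hold by summed FPKM, where CEP+4SU replicate 3 (0.696%) lay above DMSO replicate 3 (0.691%). The group means were 0.892% ± 0.0648, 0.847% ± 0.0199, 0.798% ± 0.0155 and 0.768% ± 0.0376 (SD, n = 3) for DMSO, CEP, 4SU and CEP+4SU, and this sum over chosen genes was not tested. Genes of the mitochondrial genome took 1.27% to 1.65% of the counts in DMSO, 0.967% to 1.26% with CEP, 1.31% to 1.47% with 4SU and 1.16% to 1.40% with CEP+4SU, so their lowest libraries were not those of the glycolysis genes.

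**Figure D2:**
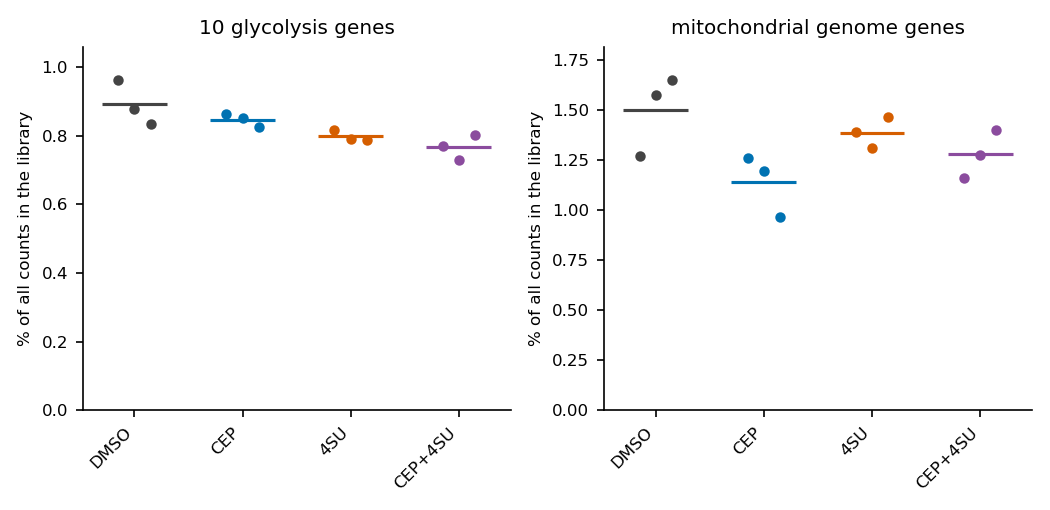
Share of all counts (%) taken by the 10 glycolysis genes (left) and by genes of the mitochondrial genome (right), with a point for each library and a line for the mean of 3. On the left the 6 libraries with 4SU (0.728% to 0.816%) lie below the 6 without it (0.824% to 0.963%).

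ENO1 (ENSG00000074800), which lies at chr1:8861000-8879250 on the minus strand in GENCODE 29 (GRCh38), was the 1 member that passed the test in any comparison. Its level was 2821, 2523 and 2552 CPM in DMSO, 2609, 2367 and 2306 CPM with CEP, 2225, 2111 and 2209 CPM with 4SU, and 2190, 1882 and 2192 CPM with CEP+4SU. Every library with 4SU was below every library without it, and ENO1 was the only member for which this held (0.863% of all genes tested were lower in this way). With CEP+4SU, ENO1 fell by 20.7% against DMSO (log2 fold change -0.33, SE 0.07, 95% interval -0.49 to -0.18, adjusted p = 0.033, edgeR's quasi-likelihood test). Averaged over the 2 CEP states, ENO1 was also lower with 4SU (log2 fold change -0.24, SE 0.05, interval -0.35 to -0.14, adjusted p = 0.034, edgeR). Leaving out DMSO replicate 1, 2 or 3, 4SU replicate 3, or CEP+4SU replicate 2 or 3 ended the call for CEP+4SU (log2 -0.28, -0.36, -0.36, -0.34, -0.26 and -0.38), and the averaged call ended without any 1 library other than CEP replicate 2, CEP replicate 3 or CEP+4SU replicate 2, at an adjusted p of up to 0.149 (edgeR). Neither call held with limma on log2 FPKM (adjusted p = 0.12 and 0.16), and the averaged call also ended with library size alone (adjusted p = 0.070) and with at least 10 counts required in every library (adjusted p = 0.051, edgeR). The direction was the same in each of these fits.

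**Figure D3:**
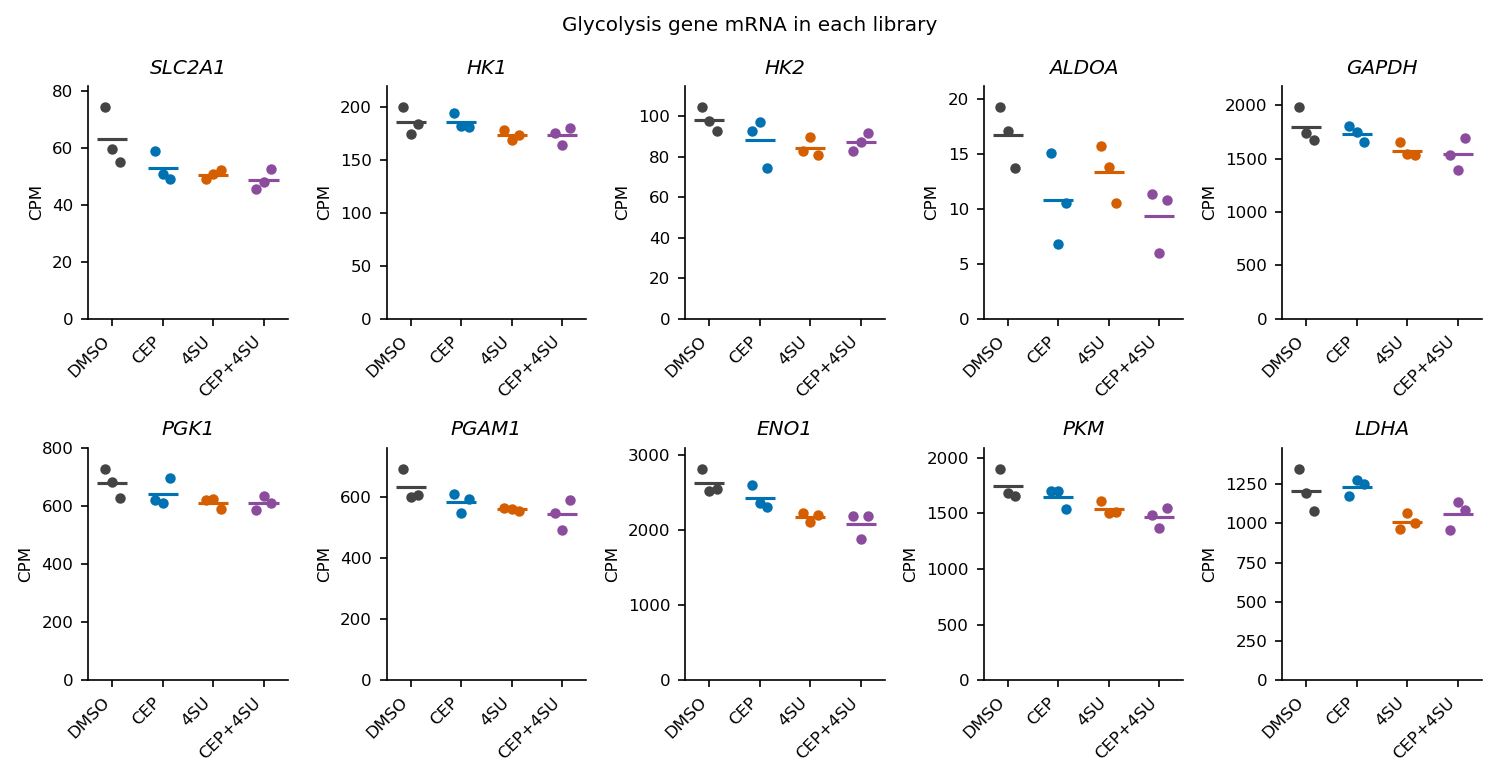
CPM of each glycolysis gene in every library (points) with the mean of 3 (lines); each vertical axis starts at 0. DMSO replicate 1, the leftmost DMSO point, is the highest of the 12 libraries for all 10 genes, and the ENO1 libraries with 4SU (1882 to 2225 CPM) lie below those without it (2306 to 2821 CPM).

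CEP alone left the 10 genes without a call. None of the 10 passed against DMSO, where 10 of 17729 genes tested passed (0.0564%), and 2 of the 10 (SLC2A1 and ALDOA) had an unadjusted p under 0.05 (edgeR), a share close to the 18.6% of all genes. DESeq2 also called 0 of the 10, and 1.83% of the genes to which it gave an adjusted p. Of the 10, 8 had a lower mean level than in DMSO, beside 50.6% of all genes, with a median log2 fold change of -0.10 beside -0.0047 over all genes. Apart from ALDOA, the values ran from -0.25 for SLC2A1 to 0.03 for LDHA, and the 95% intervals of these 9 genes together spanned -0.48 to 0.20. No member's 3 CEP libraries were all below its 3 DMSO libraries, where 10.1% of genes tested were. No member had all 6 libraries with CEP below all 6 without it either (0.513% of genes tested). CEP averaged over the 4SU states also gave no call among the 10 (0.276% of genes passed), with 1 of the 10 (ALDOA) at an unadjusted p under 0.05 by edgeR, beside 24.3% of all genes. ALDOA was called by DESeq2, which called 14.6% of the genes to which it gave an adjusted p, so neither count of 1 in 10 exceeded the share over all genes.

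GAPDH, which forms 1,3-bisphosphoglycerate and NADH, was 1983, 1743 and 1673 CPM in DMSO and 1807, 1748 and 1653 CPM with CEP. The groups overlapped, and the log2 fold change was -0.05 (SE 0.08, 95% interval -0.22 to 0.11, adjusted p = 0.75, edgeR). The sign turned with DMSO replicate 1 left out (0.02), with the gene length trend removed (0.01) and with each library's GC trend removed (0.13), and GAPDH is the member richest in GC at 58.8%. With 4SU it was 1653, 1546 and 1531 CPM, and with CEP+4SU 1534, 1395 and 1697 CPM. The 4SU libraries were all below the DMSO libraries, whereas CEP+4SU replicate 3 lay inside the DMSO range. Against DMSO the GAPDH log2 fold change was -0.19 with 4SU (SE 0.08, adjusted p = 0.74) and -0.22 with CEP+4SU (SE 0.08, adjusted p = 0.12, edgeR), and neither passed.

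Over all 12 libraries the SD of GAPDH on the log2 CPM scale was 0.13, its highest library 1.42 times its lowest. Of 13 other common reference genes, 8 had a smaller SD than GAPDH and 5 a larger one. SDHA, a subunit of respiratory complex II, had the smallest of them at 0.06, and ACTB, which encodes beta-actin, the largest at 0.20. Within the pathway HK1 was the steadiest, with an SD of 0.08, and ALDOA the most variable, with 0.50. None of the 13 reference genes passed the test in any comparison, and their median log2 fold change was 0.03 with CEP, -0.07 with 4SU and -0.11 with CEP+4SU. YWHAZ, a 14-3-3 protein, had 0.13 for CEP averaged over 4SU (adjusted p = 0.12, edgeR).

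LDHA, which regenerates NAD+ by making lactate, had a mean slightly above that of DMSO with CEP and below it with 4SU. It stood at 1349, 1193 and 1079 CPM in DMSO and 1172, 1280 and 1251 CPM with CEP, within the DMSO range. With 4SU it was 967, 1064 and 1005 CPM, all below DMSO, and with CEP+4SU 960, 1135 and 1084 CPM, which overlapped with DMSO. Its log2 fold change was 0.03 for CEP, -0.25 for 4SU and -0.19 for CEP+4SU, none of which passed, and for 4SU averaged over CEP it was -0.24 (SE 0.06, interval -0.36 to -0.12, adjusted p = 0.067, edgeR). That averaged value passed in 5 of 12 alternative fits and in 1 of 12 fits that left out a single library. Among the alternatives were DESeq2 (adjusted p = 0.014) and the GC trend removed (adjusted p = 0.0049, edgeR). These fits called 2.62% and 3.44% of all genes. LDHA and PGK1 are the members poorest in GC, at 44.0% and 43.3% of the bases of their longest annotated transcript. By the same measure the other 8 had 51.2% to 58.8%, and the median over genes tested was 48.5%. The LDHA sign with CEP turned when the GC trend was removed (-0.06) and when DMSO replicate 3 was left out (-0.04).

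With 4SU alone, all 10 genes had lower mean levels than in DMSO, none of which passed. The threshold was passed by 1 of 17729 genes in this comparison (0.00564%) and by 0 of the 10. Of the 10, 7 had an unadjusted p under 0.05, beside 6.5% of all genes (edgeR). DESeq2 gave an adjusted p to 9 of the 10 and called 0 of them, where it called 0.363% of all such genes. Lower values were found for 51.8% of all genes, and the median log2 fold change was -0.21 over the 10 genes and -0.0073 over all genes. For 8 of the 10, all but HK1 and ALDOA, every 4SU library lay below every DMSO library, as it did for 10.3% of genes tested. When the fit held the DMSO and 4SU libraries alone, ENO1 passed (log2 -0.26, adjusted p = 0.019, edgeR).

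With CEP+4SU, again all 10 genes had lower means than in DMSO, and ENO1 alone passed. That is 1 of 10 where 1.64% of all genes passed, and 8 of the 10 had an unadjusted p under 0.05, beside 21.4% of all genes (edgeR). The median log2 fold change was -0.22 over the 10 genes and 0.000066 over all genes. The libraries of 6 members, SLC2A1, HK2, ALDOA, PGAM1, ENO1 and PKM, were all below those of DMSO, as for 14.6% of genes tested. PKM was 1901, 1686 and 1653 CPM in DMSO and 1485, 1371 and 1544 CPM with CEP+4SU, a separate lower range, with a log2 fold change of -0.25 (SE 0.07, adjusted p = 0.070, edgeR). SLC2A1 was 74.4, 59.9 and 55.2 CPM in DMSO and 45.5, 48.1 and 52.5 CPM with CEP+4SU, at -0.37 (SE 0.11, adjusted p = 0.073, edgeR). DESeq2 called 4 of the 10 here, ENO1, PKM, SLC2A1 and ALDOA, and 9.96% of the genes to which it gave an adjusted p. The 3 comparisons with DMSO share the same 3 DMSO libraries.

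Averaged over the CEP states, 4SU gave a call for ENO1 alone among the 10 (0.558% of all genes passed). The mean was lower for all 10, beside 50.7% of all genes. The median log2 fold change was -0.18 over the 10 genes and -0.0019 over all genes. All 10 also had a lower mean in CEP+4SU than in CEP. That pair of groups, which does not include DMSO, was not fitted, and its share over all genes was not counted. No member passed the test of the interaction of CEP with 4SU, nor did any gene (0% of 17729, with 467 genes and 0 members at an unadjusted p under 0.05 by edgeR, and 0 genes with DESeq2), and the 95% intervals of the interaction, ALDOA aside, spanned -0.22 to 0.51.

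**Figure D4:**
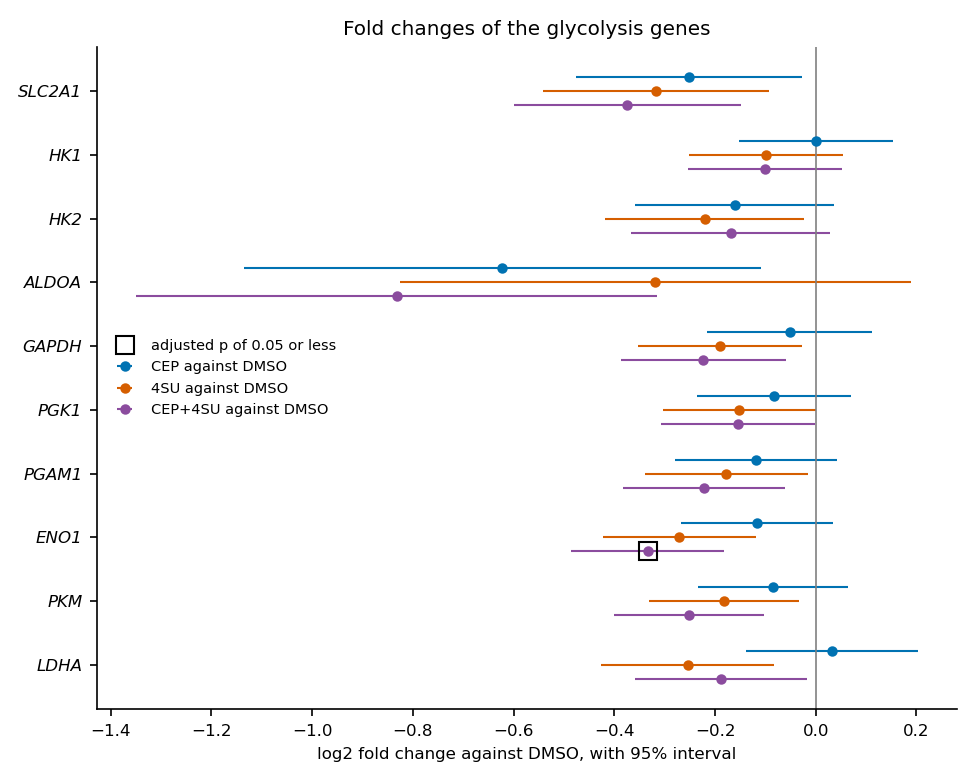
Log2 fold change against DMSO (points) with 95% interval (bars) for each glycolysis gene and treated group, fitted over all 12 libraries; a square marks an adjusted p of 0.05 or less. With 4SU and CEP+4SU every point lies left of 0, while ENO1 with CEP+4SU (-0.33) is the single marked value.

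The other members gave smaller or less certain values. HK1, the widely expressed hexokinase, showed the smallest differences, with 0.00065 for CEP and -0.10 for both 4SU and CEP+4SU, and 174 to 200 CPM in DMSO against 164 to 180 CPM with CEP+4SU. HK2, the inducible hexokinase, was 92.8 to 104 CPM in DMSO and 80.9 to 89.6 CPM with 4SU, at -0.22 (adjusted p = 0.74, edgeR). PGK1 was 629 to 730 CPM in DMSO and 591 to 625 CPM with 4SU, at -0.15. PGAM1 was 602 to 694 CPM in DMSO and 555 to 566 CPM with 4SU, at -0.18. ALDOA was 19.3, 17.1 and 13.7 CPM in DMSO and 15.1, 6.78 and 10.6 CPM with CEP, with log2 fold changes of -0.62 with CEP (SE 0.25) and -0.83 with CEP+4SU (SE 0.25), which did not pass (adjusted p = 0.20 and 0.079, edgeR). Its lowest libraries were CEP replicate 2 and CEP+4SU replicate 2, the pair with the fewest genes counted, and without both the CEP value was -0.38 and the CEP+4SU value -0.59. Whether their lower number of counted genes had a part in this was not tested.

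DMSO replicate 1 was the highest of the 12 libraries for all 10 genes, and CEP+4SU replicate 2 was the lowest for 6. Without DMSO replicate 1 the median log2 fold change of the 10 genes was -0.14 with 4SU and -0.15 with CEP+4SU, and -0.04 with CEP, and none of the 10 passed in any comparison. All 10 still had lower means with 4SU and with CEP+4SU, beside 51.2% and 50.3% of all genes. Against DMSO replicates 2 and 3 alone, the 4SU libraries were lower for 8 members (15.4% of genes tested) and the CEP+4SU libraries for 6 (19.3% of genes tested). These 2 member counts could not change, because DMSO replicate 1 was the highest library for every member. They are therefore no check on DMSO replicate 1. The part of this library in the ENO1 call is given by the value without it, -0.28 with CEP+4SU at an adjusted p of 0.17 (edgeR).

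**Figure D5:**
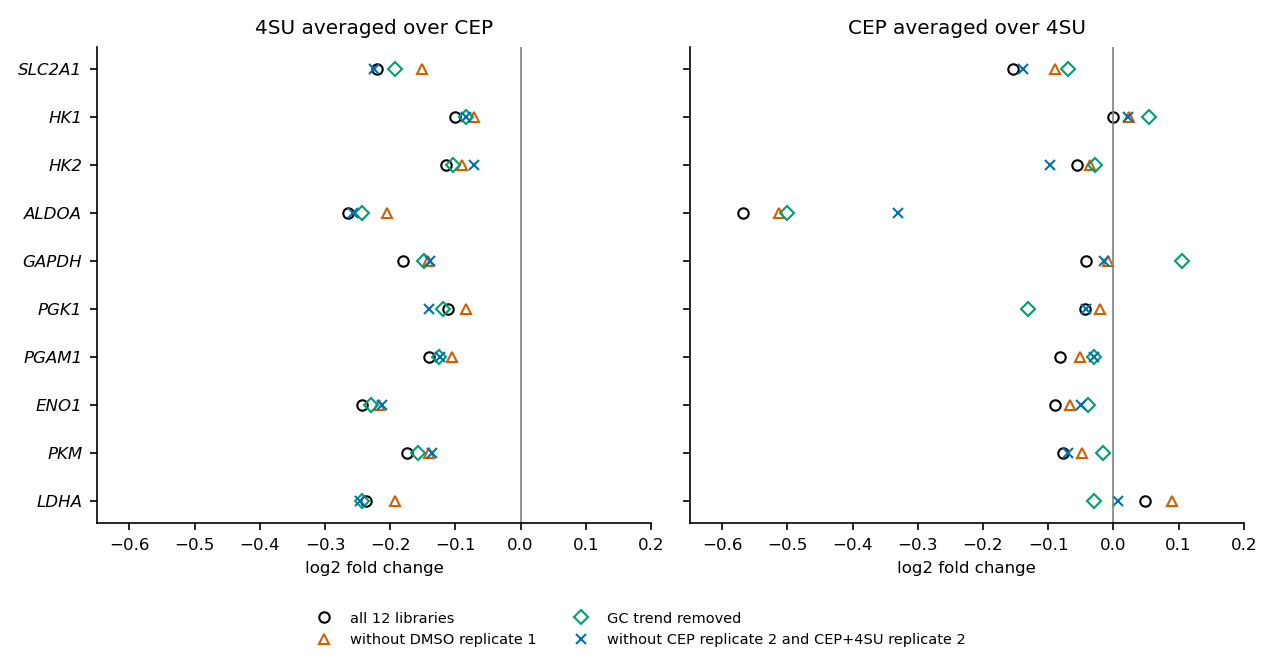
Log2 fold change of each glycolysis gene for 4SU averaged over CEP (left) and CEP averaged over 4SU (right) from all 12 libraries, without DMSO replicate 1, with each library's GC trend removed, and without the 2 libraries with the fewest genes. The left values stay below 0 under all 4 settings, while on the right HK1, GAPDH and LDHA fall on both sides of 0.

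Among 21 other glycolytic enzymes and isoenzymes, 14 were tested and 2 passed, both lower with CEP+4SU, where 1.64% of all genes passed. PFKL, the liver-type phosphofructokinase, was 208, 203 and 203 CPM in DMSO and 158, 107 and 149 CPM with CEP+4SU, and fell by 0.57 on the log2 scale (SE 0.12, adjusted p = 0.027, edgeR). PFKP, the platelet-type form of this rate-controlling enzyme, fell by 0.41 (SE 0.09, adjusted p = 0.030, edgeR), and PFKM, the muscle type, did not pass. With the GC trend removed PFKL gave -0.28, at an adjusted p of 0.019, and PFKP -0.25, at 0.048 (edgeR). Neither passed with limma on log2 FPKM (adjusted p of up to 0.101 for PFKL and 0.087 for PFKP), nor did PFKP without the pair of libraries with the fewest genes (adjusted p = 0.053, edgeR). Both calls ended without any 1 of the 3 DMSO libraries, 4SU replicate 3, or CEP+4SU replicate 2 or 3, where PFKL ran from -0.63 to -0.41 and PFKP from -0.46 to -0.34. The median over the 14 was -0.13 with CEP, -0.21 with 4SU and -0.18 with CEP+4SU, and 11 of the 14 were lower in each. GPI and TPI1, the isomerases missing from the 10, had -0.25 and -0.27 with CEP+4SU and did not pass. PGAM4, a retrocopy of PGAM1 whose reads may be split with it, had the furthest value for CEP averaged over 4SU, -0.81 (adjusted p = 0.20), followed by ENO3, the muscle enolase, at -0.34 (adjusted p = 0.20, edgeR), both at low levels of 1.09 and 5.39 CPM.

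Of 16 genes that control glycolysis or export lactate, all were tested and none passed in any comparison, with medians of 0.05, -0.02 and 0.04 for CEP, 4SU and CEP+4SU. PFKFB4, which sets the level of fructose 2,6-bisphosphate, had -0.32 (adjusted p = 0.072) and PDK4, a kinase that restrains pyruvate dehydrogenase, 0.27 (adjusted p = 0.24) for CEP averaged over 4SU (edgeR). Of 15 HIF targets outside glycolysis, 14 were tested and ADM, the adrenomedullin gene, was the one that passed, 0.53 higher for CEP averaged over 4SU (SE 0.10, adjusted p = 0.017, edgeR). In that comparison 0.276% of all genes passed. ADM was 10.3 to 11.3 CPM in DMSO, 13.3 to 18.1 with CEP, 9.43 to 10.4 with 4SU and 13.5 to 15.2 CPM with CEP+4SU, so the CEP libraries were separate from those without. The call ended without any 1 of the DMSO or 4SU libraries or CEP replicate 3 (0.46 to 0.54, adjusted p of 0.054 to 0.086, edgeR), and with limma on log2(FPKM + 1) (adjusted p = 0.052). The other HIF target named by size, ANKRD37, had -0.41 (adjusted p = 0.38, edgeR) at 1.44 CPM. The median of the list was -0.0095 with CEP.

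Beside these, the 13 mRNAs of the mitochondrial genome had a median log2 fold change of -0.39 with CEP, -0.17 with 4SU and -0.26 with CEP+4SU. MT-ND1 and MT-ND2 passed with CEP and with CEP+4SU, where 0.0564% and 1.64% of all genes passed. MT-ND2, a subunit of respiratory complex I, was 928, 1006 and 1070 CPM in DMSO and 667, 533 and 435 CPM with CEP, and fell by 0.88 on the log2 scale (SE 0.11, adjusted p = 0.0015, edgeR). With limma neither gene passed in these comparisons, at adjusted p of up to 0.119 for MT-ND2 and 0.262 for MT-ND1. The MT-ND1 call with CEP also ended with only the libraries of the comparison, with the length trend removed, and without DMSO replicate 2 or 3, CEP replicate 2 or 3, or 4SU replicate 3 (-0.88 to -0.68), and its call with CEP+4SU ended without DMSO replicate 2 or 3 or CEP+4SU replicate 3 (-0.81 to -0.66). ENO1, by contrast, gave -0.12 with CEP (SE 0.07, interval -0.27 to 0.03, adjusted p = 0.38, edgeR). The difference between the mitochondrial mRNAs and the glycolysis genes was not tested.

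The members' profiles over the 12 libraries were alike to different degrees. The Pearson r of a member's log2 CPM with the mean standardized profile of all 10, which contains the member itself, was 0.95 for GAPDH and PKM, 0.94 for ENO1, 0.93 for PGAM1 and SLC2A1, and 0.86 for HK1. It was 0.66 to 0.69 for ALDOA, HK2, LDHA and PGK1. Among 5165 other genes with at least 50 CPM, those with the highest r to this mean over 12 libraries were AKT1 (0.95), NT5DC2 (0.94), PGD (0.93), TBCD (0.93) and LRPAP1 (0.92). The points share depth, normalization and base composition trends of the libraries, so these values describe likeness in these 12 libraries.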

How the data were processed

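RNA from 12 HEK293T cultures was sequenced by the authors as paired-end poly(A) libraries. Per their methods, low-quality, poly-N and adapter reads were discarded and the rest aligned with HISAT2 2.0.5 (GRCh38, from the submitters' processing notes) and counted with featureCounts 1.5.0-p3. The deposited gene counts are whole and unscaled. To obtain FPKM, the authors divided counts by gene length and by an adjusted library size, which was 0.981 to 1.03 of the total count. The labels name both directional and non-directional kits, so antisense reads may not be separated. Columns of the authors' group means were not used.

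The 10 members and the gene lists were chosen with earlier results of these data known. All 58735 identifiers are in GENCODE 29. The filter filterByExpr of edgeR, at a minimum count of 10 and a total of 15, kept 17729 and all 10 members. Counts were normalized by TMM and fitted in one quasi-likelihood model of 4 groups (R 4.3.3, edgeR 4.0.16), with Benjamini-Hochberg adjustment over all genes tested and a threshold of 0.05. CPM uses TMM library sizes, and 95% intervals use the model's standard error and degrees of freedom. Each treated group was compared with DMSO, each compound was averaged over the other, and their interaction was tested. P-values measure the spread between these cultures, which differ more than counting noise within every group.

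Alternatives were DESeq2 1.42.0, upper-quartile scaling, library size alone, no low-count filter, at least 10 counts in every library, a block for replicate number, fits restricted to the compared libraries, limma 3.58.1 on log2(FPKM + 1) and log2(FPKM + 0.1), gene length or GC trends removed, pseudogene counts added, and each library left out. Leaving out CEP replicate 2 and CEP+4SU replicate 2 together was added after seeing the data. Scripts were tested on simulated counts. Named from each list are genes past the threshold and the 2 of at least 1 CPM with the largest absolute change for CEP averaged over 4SU. Some genes and a list that this rule covers are not reported here. GPI, TPI1, PFKM, SDHA and ACTB were named after their values were seen. Also named are the 5 genes of at least 50 CPM whose profile was most like the members' mean. Upstream sequences are from RefSeq (GRCh38.p14), found for 10 of 10 members.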

Additional observations from a re-analysis of the deposited data

How the results depend on the processing

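The number of the 10 genes called with CEP+4SU, 1 in the model described, was 4 with DESeq2 (9.96% of all genes), 4 with no low-count filter (3.46%), 5 with the replicate block (9.40%), 2 with only the libraries of the comparison (3.36%), 2 with the length trend (1.96%) and 2 with the GC trend removed (1.26%), and 0 with limma at either pseudocount (0.118% and 0.135%). For 4SU averaged over CEP, also 1, it was 2 with DESeq2 (2.62% of all genes), with no low-count filter (0.873%), with the replicate block (1.90%) and without the pair of libraries with the fewest genes (1.23%). It was 3 with the GC trend removed (3.44%). The count was 0 with library size alone (0.400%), with at least 10 counts in every library (0.678%) and with limma at either pseudocount (0.164% and 0.147%). For CEP averaged over 4SU, 0 became 1 with DESeq2 (14.6%), no filter (4.06%) and the replicate block (12.8%), for CEP against DMSO 1 with no filter (1.86%), and for 4SU against DMSO 1 with only the libraries of the comparison (0.557%). Leaving out single libraries gave 0 to 1 for CEP, 0 for 4SU, 0 to 3 for CEP+4SU, 0 to 1 for CEP averaged, 0 to 2 for 4SU averaged and 0 for the interaction. In the fits with these highest counts, 6.61% of all genes passed for CEP and 3.52% for CEP+4SU. The shares were 11.8% and 6.16% for CEP averaged and 0.687% for 4SU averaged. For 4SU and the interaction, 0 to 1 of all genes passed. The cause was not tested.

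As a share of summed FPKM the 10 genes took 0.741%, 0.731%, 0.673% and 0.661% for DMSO, CEP, 4SU and CEP+4SU. By this measure the libraries with and without 4SU overlapped, with CEP+4SU replicate 3 at 0.696% and DMSO replicate 3 at 0.691%. Leaving out single libraries gave 0.856% to 0.920%, 0.838% to 0.858%, 0.789% to 0.804% and 0.750% to 0.787% of counts.

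For CEP against DMSO the sign turned for GAPDH with the length trend (0.014) and GC trend (0.13) removed, for LDHA with the GC trend removed (-0.061), and for HK1, which lies near 0, with DESeq2 (-0.0032), upper-quartile scaling (-0.014), no filter (-0.0068), at least 10 counts (-0.0097), the comparison's libraries (-0.0015), limma (-0.0013 at both pseudocounts) and the length trend removed (-0.021). For CEP averaged over 4SU it turned for GAPDH with the length (0.0053) and GC trends removed (0.10), for LDHA with the GC trend removed (-0.029), and for HK1 with the replicate block (0.000086), the GC trend removed (0.055) and without the pair of libraries with the fewest genes (0.022). Leaving out single libraries, HK1 ran from -0.036 to 0.054 for CEP and from -0.030 to 0.024 averaged, GAPDH from -0.098 to 0.021 and LDHA from -0.038 to 0.12 for CEP. For 4SU against DMSO, CEP+4SU against DMSO and 4SU averaged over CEP no member changed sign under any of these alternatives.

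Of 18 same-numbered pairs of libraries, the deviations from the group means correlated above 0.1 in 1 (r from -0.047 to 0.14). A library correlated best with its own number in 16 of 36 pairings. Each pairing chose among 3 libraries, so some matches would arise without any relation between the numbers. The deviations within a group also cancel out, so a higher r in 1 pair goes with lower r in others. Between CEP and CEP+4SU, r was 0.14 for replicates 1 and 0.086 for replicates 2. The crossed pairs of these numbers gave -0.16 and -0.10, and replicates 3 gave -0.047. Whether the replicate numbers mark a shared batch was not tested. The replicate block moved the genes called with CEP+4SU from 290 to 1667, and those for CEP averaged over 4SU from 49 to 2269. With DESeq2 these were 1141 and 1474, with no filter 1234 and 1448, and with limma on log2(FPKM + 1) 21 and 19. The intervals cover variation among these cultures only.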
